A study of Danio rerio with 12 samples.

Results

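The 489 genomic regions described below were accessible in zebrafish embryos given all-trans retinoic acid (atRA). In control embryos of the same age they ranked beyond 100000 or were not called. They were found in control embryos of the next stage examined. They were chosen from ranked lists of ATAC-seq peaks, with rank 1 for the strongest peak of a library. On chromosomes 1 to 25, the best 50000 peaks of a library formed its top set and the best 100000 its wide set. Top sets of the 4 libraries of a stage were merged into its regions. To count as gained, a region had to overlap both atRA top sets of its stage but none of the DMSO wide sets. A gained region was early if it also overlapped the wide set of both DMSO libraries of the next stage. At 80% epiboly, 205 of 72762 regions were early (0.282%), out of 422 gained (0.58%). At 12 somites, 284 of 76010 regions were early (0.374%), out of 466 gained (0.613%). No early region of 80% epiboly overlapped one of 12 somites, which the rules all but fix in advance. Early regions of 80% epiboly must overlap both DMSO wide sets of 12 somites, and those of 12 somites must overlap neither. Summed over the 3 stages there were 222003 regions, where a place found at several stages counts in each of them. Everything that these rules used, the ranks in the libraries of the region's own stage and in the DMSO libraries of the next, is given as a description without a test.

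All embryos were wild type, and whole embryos were taken without chorion and yolk. Embryos of 80% epiboly, late in gastrulation, had received 0.1 µM atRA or its solvent dimethyl sulfoxide (DMSO) from 30% epiboly. Embryos of 12 somites and of 24 hours post fertilization (hpf) had received 0.1 µM atRA or DMSO from 80% epiboly. The 6 groups of 2 libraries were thus atRA and DMSO at each of the 3 stages, and all 12 libraries were used. How many embryos or clutches entered a library is not given in the sources used here, so p-values measure only the spread between libraries, which may be technical. The libraries mix all cell types of the embryo, so fewer cells with an accessible site and less accessibility per cell cannot be told apart.

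Retinoic acid is made from vitamin A and binds nuclear receptors, the RARs, which sit on DNA together with RXR partners. Without ligand these receptors recruit corepressors, and with ligand they recruit coactivators that open chromatin and raise transcription. In vertebrate embryos retinoic acid patterns the hindbrain and trunk along the body axis, in part through Hox genes, and cells of the head and tail clear it with CYP26 enzymes. ATAC-seq uses a transposase that cuts DNA where nucleosomes leave it exposed, as they do at active promoters and enhancers, so a peak marks DNA that can be reached and not the factor bound there.

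Depth differed between libraries and must be read beside every rank. Lists held 154354 to 439137 peaks, and their background pileup, which tracks depth, lay between 0.69 and 3.28 fragments. At 80% epiboly it was 2.47 and 0.87 in atRA against 3.18 and 3.28 in DMSO. At 12 somites it was 1.6 and 1.44 in atRA against 0.69 and 1.15 in DMSO, and at 24 hpf 2.03 and 1.98 in atRA against 1.39 and 2.03 in DMSO. Thus the deeper arm was DMSO at 80% epiboly and atRA at 12 somites, and the part of depth in the numbers of gained regions was not tested. Libraries 80% epiboly atRA replicate 2 and 12 somites DMSO replicate 1 stood apart as the shallowest. At 24 hpf, both DMSO lists carry a word in their peak names that the atRA lists lack; should it mark a batch, that batch cannot be told apart from the treatment there. Leaving out a library turns a condition on a pair of libraries into a condition on the remaining one. The 205 early regions of 80% epiboly became 727 without its atRA replicate 1, 774 without atRA replicate 2, 372 without DMSO replicate 1 and 410 without DMSO replicate 2. The 284 of 12 somites became 754 and 851 without its atRA replicate 1 or 2, 722 without DMSO replicate 1 and 2050 without DMSO replicate 2.

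The first question was how often DNA gained with atRA was found in the controls of the next stage. At 80% epiboly, 48.6% of the gained regions were found in both DMSO wide sets at 12 somites (205 of 422). With 1 library left out, which also loosens the rule, this share lay between 30.5% and 64.5%. With all libraries, the share was 33.0% among regions of only 1 atRA top set that neither DMSO wide set held (1092 of 3307). It was 14.6% among the lost regions, which met the gained rule with the treatments exchanged (89 of 610), and 63.8% over all regions of the stage. At 309 of these 610 lost regions the shallow 80% epiboly atRA replicate 2 had no peak, against 40 in atRA replicate 1. The part of depth in the share of lost regions was not tested. At 12 somites, 60.9% of the gained regions were found in both DMSO wide sets at 24 hpf (284 of 466, and 41.6% to 75.3% with 1 library left out). Regions of 1 atRA library reached 39.2% there (1033 of 2636), lost regions 23.0% (42 of 183) and all regions 70.9%.

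Gained regions thus recurred in later controls more often than regions of 1 atRA library, by 15.6 percentage points at 80% epiboly and by 21.8 at 12 somites, and less often than the average region. Both compared sets lie beyond rank 100000 or lack a peak in the controls of their own stage, but not equally. At 80% epiboly the median DMSO ranks were 136010 and 138366 in early regions and 148591 and 153055 in other gained regions. In regions of 1 atRA library they were 151418 and 150420. At 12 somites, DMSO replicate 2 had no peak at 10.6%, 18.1% and 23.0% of these sets, in the same order. Regions found in both atRA libraries also ranked better in those libraries than regions found in 1. The parts of these rank and peak differences in the result were not tested. With a top set of 20000 peaks, which left 13 and 5 gained regions, the differences were −3.15 and −6.04 points. Without the shallow 12 somites DMSO replicate 1, 64.5% of the regions gained at 80% epiboly and 65.2% of those gained at 12 somites were found later, while regions of 1 atRA library reached 49.6% and 43.9% in the same setting.

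**Figure D1:**
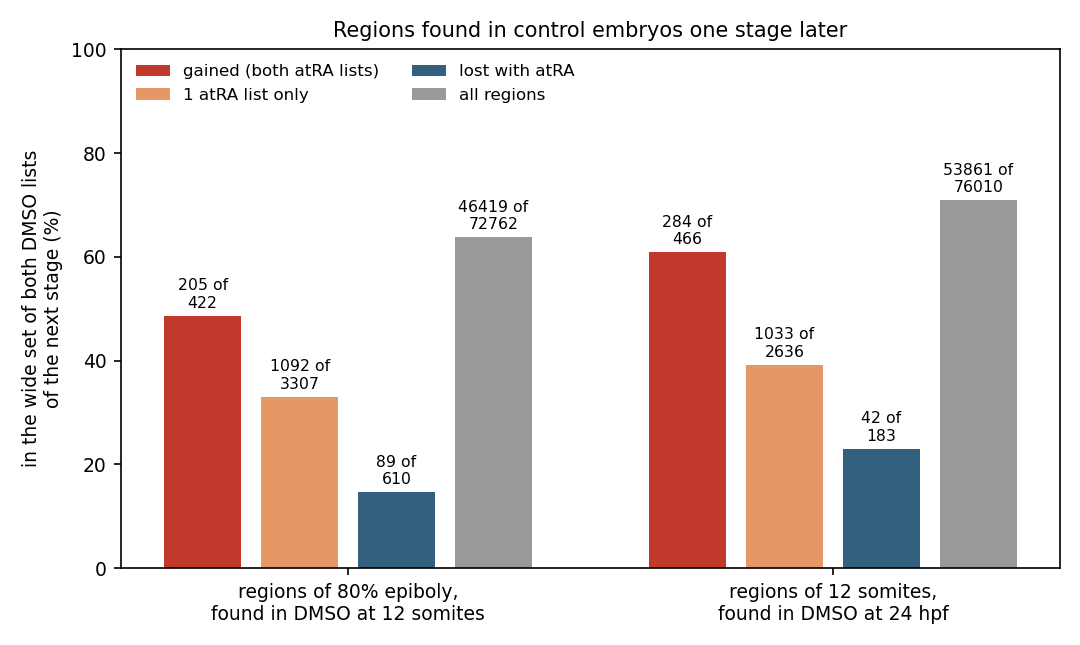
Share of regions (%) that overlapped the wide set of both DMSO libraries of the next stage. Sets are regions gained with atRA, regions of 1 atRA top set that neither DMSO wide set held, lost regions and all regions. Counts stand above the bars. The gained regions reach 48.6% and 60.9%, above the regions of 1 atRA library (33.0% and 39.2%) and below all regions (63.8% and 70.9%).

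The count in the other direction started from places that opened in controls between stages. At 12 somites, 2705 regions lay in the top set of both DMSO libraries and in the wide set of neither DMSO library at 80% epiboly. Of these, 109 (4.03%) lay in the top set of both atRA libraries at 80% epiboly, and 1089 (40.3%) in the wide set of neither, against 43.2% and 17.1% of all regions of 12 somites. At 24 hpf, 1779 regions opened in the same sense since 12 somites, of which 120 (6.75%) lay in the top set of both atRA libraries at 12 somites. Another 569 (32.0%) lay in the wide set of neither atRA library. Over all regions of 24 hpf these shares were 50.1% and 11.8%. Places that opened were chosen for their absence from the DMSO wide sets of the earlier stage. The part of that choice in these shares was not tested.

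The early regions of 80% epiboly had similar median heights in treated gastrulae and in control embryos of 12 somites. The rule chose them by their ranks in both, so this likeness is no independent result. Height is given as the summit pileup divided by the background pileup of the same library, which scales for depth but does not level libraries fully. In regions of all 4 top sets of 80% epiboly its median was 31.0 in the shallow atRA replicate 2. It was 23.9 in atRA replicate 1 and 23.0 and 22.6 in DMSO, and the cause was not tested. For the early regions, the median height was 18.6 and 19.5 in the atRA libraries of 80% epiboly, against 8.18 and 7.93 in its DMSO libraries. At 12 somites it was 19.4 and 18.75 in atRA, against 18.8 and 20.0 in DMSO. At 24 hpf it was 8.87 and 7.58 in atRA, against 10.8 and 9.85 in DMSO. Over all regions of 80% epiboly the medians at 12 somites were 16.25 and 16.7 in atRA and 15.9 and 17.4 in DMSO. At 24 hpf they were 9.36 and 8.59 in atRA and 12.9 and 11.8 in DMSO, so regions in general were lower at that stage too. The fall was larger in the early regions, whose medians lay above those of all regions at 12 somites and below them at 24 hpf. The choice by rank in the DMSO libraries of 12 somites may raise the former, and its part in the fall was not tested. The rule used the libraries of 80% epiboly and the DMSO libraries of 12 somites. The atRA heights of 12 somites share their stage with those DMSO libraries and are no independent value, so 24 hpf alone was unused.

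With atRA, these regions also stood open at 12 somites, where treatment had begun only at 80% epiboly. The top set of 12 somites atRA replicates 1 and 2 held 70.2% and 72.2% of them, against 69.8% in each DMSO library. All regions of 80% epiboly reached 52.9% and 54.0% there in atRA, against 50.7% and 54.4% in DMSO. Both atRA wide sets held 183 of the 205 (89.3%), against 69.4% over all regions of 80% epiboly. The regions were chosen by the DMSO libraries of this same stage, so this share is no independent value. Neither atRA wide set held 6 (17.8% of all regions). The top sets of both atRA libraries held 128 (62.4%, against 46.7% of all regions), and those of both DMSO libraries 108 (52.7%, against 43.0%). The top sets of all 4 libraries of 12 somites held 85 (41.5%, against 37.2% of all regions).

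**Figure D2:**
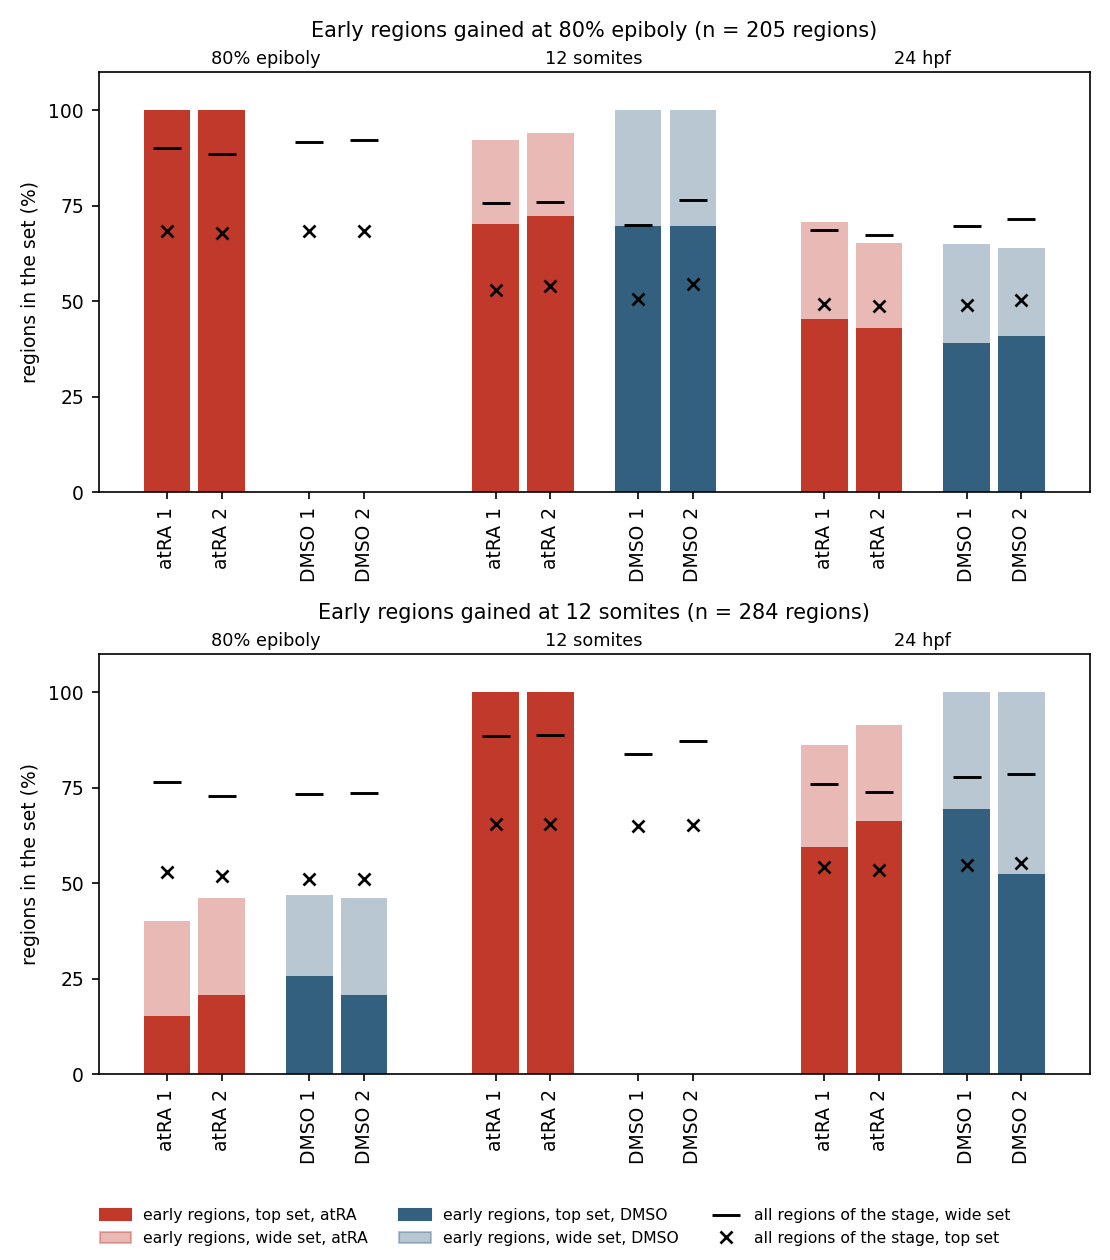
Share (%) of the early regions that overlapped the top set (solid bars) and wide set (pale bars) of each of the 12 libraries, with all regions of the stage as crosses (top set) and lines (wide set). By the rule, the bars are at 100% in the atRA libraries and at 0% in the DMSO libraries of the region's own stage. At the stage the rule did not use, the top sets held 45.4% and 42.9% in atRA against 39.0% and 41.0% in DMSO (upper plot, 24 hpf). In the lower plot (80% epiboly) they held 15.1% and 20.8% in atRA against 25.7% and 20.8% in DMSO.

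By 24 hpf, fewer of the 205 regions ranked high, in either treatment. The top sets held 45.4% and 42.9% of them in atRA, against 39.0% and 41.0% in DMSO, where all regions of 80% epiboly reached 49.3% and 48.6% in atRA and 49.1% and 50.3% in DMSO. Both atRA wide sets held 114 (55.6%, against 59.9% of all regions), 1 of them 51 and neither 40 (19.5%, against 23.8%). Both DMSO wide sets held 110 (53.7%, against 63.4% of all regions), 1 of them 44 and neither 51 (24.9%, against 22.2%). At these limits, the 51 regions in neither DMSO wide set were found in controls at 12 somites alone among the 3 stages. Their share lay near that of all regions (24.9% against 22.2%), so it shows no trait of early regions. Of the 51, 27 lay in no atRA wide set of 24 hpf either, a count that was not made over all regions.

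The early regions of 12 somites had heights of 18.1 and 17.4 in the atRA libraries of their stage. DMSO replicate 2 had a median of 8.70, and DMSO replicate 1, the shallowest library, had no peak at 173 of the 284 (60.9%, against 9.13% of all regions). At 24 hpf the median heights were 10.3 and 10.6 in atRA, against 15.8 and 11.8 in DMSO. Over all regions of 12 somites they were 10.3 and 9.60 in atRA and 14.4 and 12.8 in DMSO. The top sets of 24 hpf held 59.5% and 66.2% of the regions in atRA, against 69.4% and 52.5% in DMSO, where all regions of 12 somites reached 54.2% and 53.6% in atRA and 54.8% and 55.2% in DMSO. Both atRA wide sets held 231 of 284 (81.3%, against 66.6% of all regions of 12 somites) and share their stage with the DMSO libraries used for the choice. Neither held 10 (3.52%, against 16.6%). The top sets of both atRA libraries held 135 (47.5%, against 45.4%), and those of both DMSO libraries 119 (41.9%, against 46.7%).

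**Figure D3:**
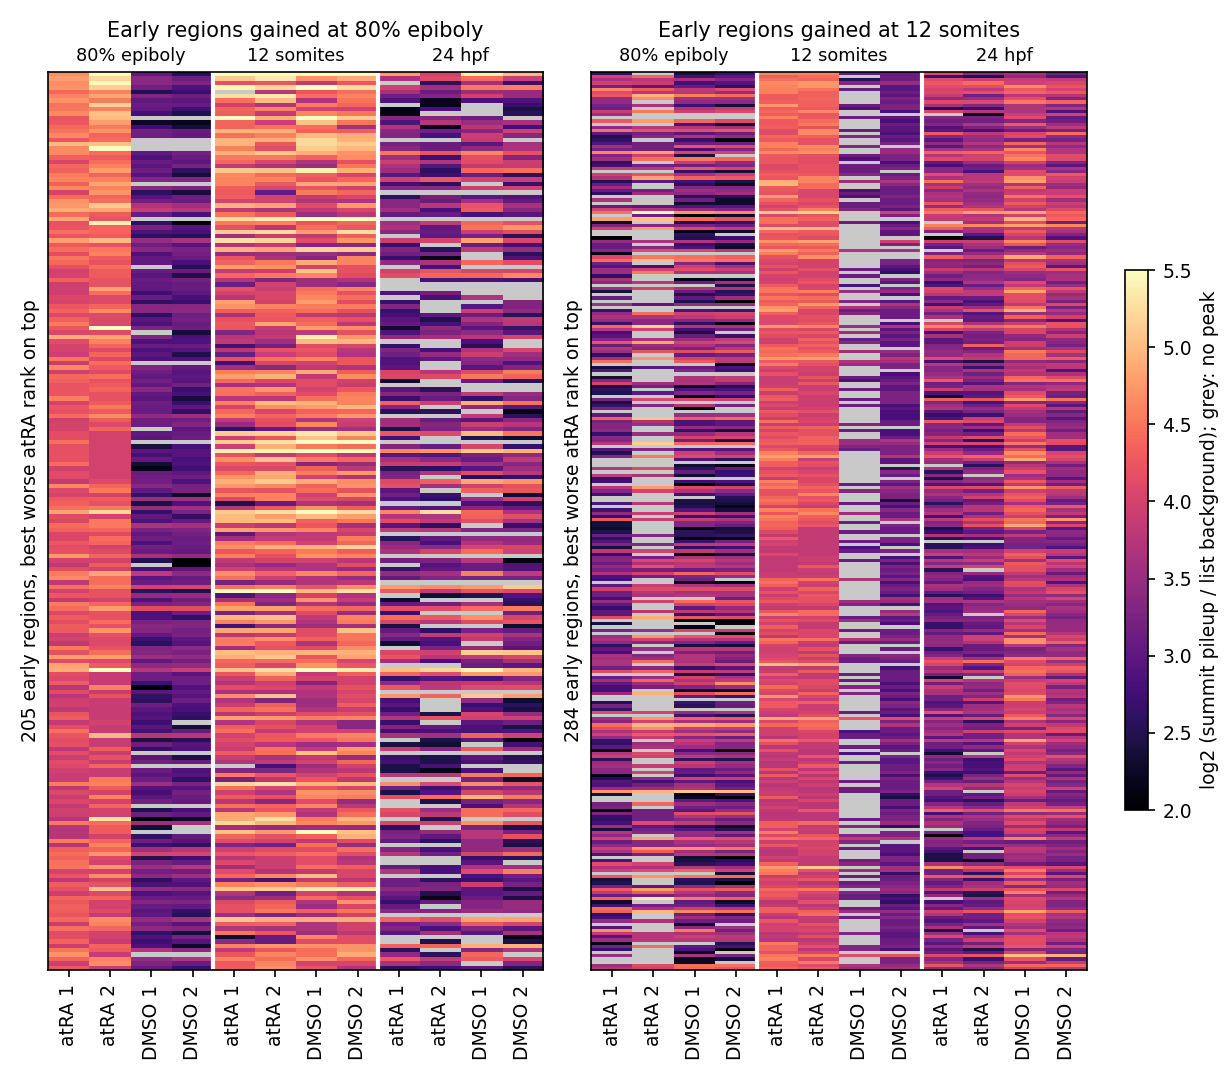
Heat map of log2 of the height (summit pileup over the background pileup of the library) for each early region (lines of the map, those with the best worse atRA rank on top) in each of the 12 libraries; grey marks no peak. Regions gained at 80% epiboly are bright in both treatments at 12 somites, and grey is frequent for regions gained at 12 somites in 12 somites DMSO replicate 1 (no peak at 173 of 284) and in 80% epiboly atRA replicate 2 (no peak at 121).

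The name "opened early" describes the second set only in part, because many of its regions had been accessible before. At 80% epiboly, 116 of the 284 lay in the wide set of both DMSO libraries (40.8%, against 69.1% of all regions of 12 somites), 32 in that of 1 library and 136 in neither (47.9%, against 21.9%). The 116 were thus found in controls at 80% epiboly and at 24 hpf but not in between, at these limits. In the atRA libraries of 80% epiboly, 93 lay in both wide sets (32.7%, against 66.2%), 59 in 1 and 132 in neither (46.5%, against 17.1%). The wide set of none of the 4 libraries held 103, a count that was not made over all regions and has no background. For the 205 regions of the first set no earlier stage was examined.

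In most early regions at least 1 control library of the same stage had a peak below the limit and not an empty place. Among the 205 regions, 186 had a peak of some rank in both DMSO libraries of 80% epiboly (90.7%, against 99.5% of all regions), 6 in 1 of them and 13 in neither (6.34%, against 0.239%). Among the 284, the counts were 103 in both DMSO libraries of 12 somites (36.3%, against 88.9% of all regions), 159 in 1 (56.0%, against 10.4%) and 22 in neither (7.75%, against 0.699%). The rule used these libraries, so the lower shares are part of the choice. Peaks in all 12 lists were found at 123 of the 205 (60.0%, against 60.3% of all regions) and at 66 of the 284 (23.2%, against 62.6%). A missing peak means that none passed the authors' threshold at the depth of that library, which was lowest at 12 somites in DMSO.

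Many regions lay close to the limits of the rule. The better of the DMSO ranks of the own stage lay between 100000 and 110000 for 59 of the 205 and for 79 of the 284. At 80% epiboly the last region inside and the first outside had a worse atRA rank of 49935 and 50443, a better DMSO rank of 100197 and 99803, and a worse DMSO rank of the next stage of 99207 and 101607. At 12 somites the same pairs were 49993 and 50023, 100041 and 99885, and 99926 and 100371. Membership of single regions near these values rests on small differences in rank.

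Only the stage that the rule left out allows a test of atRA against DMSO. At 24 hpf, the top sets held 44.1% ± 1.72 of the early regions of 80% epiboly in atRA and 40.0% ± 1.38 in DMSO (SD, n = 2 each), a difference of 4.15 percentage points (exact permutation test over libraries, two-sided, p = 0.333, the smallest that 2 libraries against 2 can give). Both atRA libraries lay above both DMSO libraries, while over all regions the difference was −0.722 points. The wide sets held 68.0% ± 3.79 in atRA and 64.4% ± 0.69 in DMSO, a difference of 3.66 points (exact permutation, two-sided, p = 0.333). Without 80% epiboly atRA replicate 2, the regions so defined differed by 0.711 points in the top sets.

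At 80% epiboly, the mean share of the early regions of 12 somites was lower in atRA than in DMSO, with p-values above the smallest the design can give (0.333). The wide sets held 43.1% ± 4.23 of them in atRA and 46.5% ± 0.498 in DMSO (SD, n = 2 each), a difference of −3.35 points (exact permutation, two-sided, p = 0.667), against 0.991 points over all regions. The top sets held 18.0% ± 3.98 in atRA and 23.2% ± 3.49 in DMSO, a difference of −5.28 points (exact permutation, two-sided, p = 0.667). The mean of the top set difference at 24 hpf and the wide set difference at 80% epiboly was 0.401 points (exact permutation over 36 labelings within stages, two-sided, p = 0.944; the smallest possible is 0.0556). Its sign depended on single libraries: it was −2.81 points without 80% epiboly atRA replicate 2 and 1.65 without atRA replicate 1 of that stage.

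Counted by region, both atRA libraries of 24 hpf ranked 41 of the 205 regions better than both DMSO libraries (20.0%, against 14.1% of all regions). The reverse held for 27 (13.2%, against 18.3%). At 80% epiboly, both atRA libraries ranked 43 of the 284 regions better than both DMSO libraries (15.1%, against 22.7%), and the reverse held for 97 (34.2%, against 22.3%). The shallow atRA replicate 2 of 80% epiboly had no peak at 121 of the 284, against 41 in atRA replicate 1, 21 in DMSO replicate 1 and 22 in DMSO replicate 2. Over all regions of 12 somites the same shares without a peak were 17.8%, 3.42%, 2.73% and 2.67%. The part of the shallow library in the count of 97 was not tested.

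Single regions show what the sets contain, and their coordinates are on GRCz10 (danRer10), the build named in the submitters' processing notes. No genome sequence or gene annotation of that build was used here, so genes, exons and sequences at these places are not given. The best-ranked early region of 80% epiboly was chr22:34685739-34686457, 719 bp wide. It ranked 6486 and 2580 in the atRA libraries of that stage, against 124398 and 223798 in DMSO. Summit pileups were 63 and 50 in atRA against 26 and 19 in DMSO, which are heights of 25.5 and 57.5 against 8.18 and 5.79. At 12 somites it was among the strongest sites of every library, with ranks of 869 and 2302 in atRA and of 1196 and 1189 in DMSO. It stayed high at 24 hpf, at ranks 1134 and 10427 in atRA and 1675 and 2077 in DMSO. This site was thus weak in control gastrulae and strong in all 8 libraries of the later stages.

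Within 30 kb of it lay another early region of 80% epiboly, chr22:34656910-34657183. It ranked 28793 and 28549 in atRA against 107654 and 205313 in DMSO at 80% epiboly, then 7564 and 11223 in atRA against 6688 and 14211 in DMSO at 12 somites. At 24 hpf the ranks were 33474 and 90241 in atRA against 23606 and 13953 in DMSO. Both regions of the pair ranked better at 12 somites than in treated gastrulae, whatever the treatment.

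The next in rank, chr7:11880576-11880908, kept a high rank in treated embryos of all stages. It ranked 12425 and 11970 in atRA against 120133 and 164689 in DMSO at 80% epiboly, and 9489 and 5626 in atRA against 23243 and 22209 in DMSO at 12 somites. At 24 hpf the ranks were 25845 and 11599 in atRA against 19804 and 32475 in DMSO, and the treatments overlapped. The same order at 12 somites, with both atRA libraries ahead, was seen at chr19:17369077-17369604, at 6056 and 4364 in atRA against 27832 and 22649 in DMSO. Its ranks at 80% epiboly were 16702 and 18836 in atRA against 104329 and 123930 in DMSO. At chr22:7545105-7545405 the order at 12 somites was the reverse, with no peak in atRA replicate 1 and rank 47749 in replicate 2, against 25060 and 18735 in DMSO. That region had ranked 15089 and 18562 in atRA at 80% epiboly, against 237722 and 188676 in DMSO.

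A small group had no control peak at all at its own stage and a strong one at the next. This held for 11 of the 205 regions (5.37%, against 0.0344% of all regions) and 6 of the 284 (2.11%, against 0.0526%), shares that the choice of regions raises. At chr3:60196502-60196862, the ranks at 80% epiboly were 3989 and 31127 in atRA, with summit pileups of 72 and 16, and no DMSO library had a peak. At 12 somites all 4 libraries ranked it high, at 3546 and 3079 in atRA and 2515 and 662 in DMSO. At 24 hpf no library of either treatment had a peak there. It was thus found in controls at 12 somites and in no control library before or after.

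Up to 12 somites, a similar course was seen at chr14:15912953-15913254 and chr1:57258134-57258435, but at 24 hpf some libraries still had a peak there. The region on chromosome 14 ranked 23456 and 26331 in atRA at 80% epiboly without a DMSO peak, and 5187 and 7203 in atRA against 5668 and 7330 in DMSO at 12 somites. At 24 hpf only DMSO replicate 1 had a peak there, at rank 36188. The region on chromosome 1 ranked 22365 and 10715 in atRA at 80% epiboly without a DMSO peak, and 613 and 6980 in atRA against 2418 and 6027 in DMSO at 12 somites. At 24 hpf it ranked 31998 and 30423 in atRA, against 84391 in DMSO replicate 1 and no peak in replicate 2. At both places, the ranks at 12 somites did not separate the treatments.

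A pair of such regions lay side by side on chromosome 9, at chr9:49077349-49077607 and chr9:49077841-49078557, within 1209 bp. The first ranked 11306 and 26677 and the second 27279 and 5998 in the atRA libraries of 80% epiboly, and neither had a DMSO peak. At 12 somites the first ranked 10238 and 43664 in atRA against 9173 and 14319 in DMSO. The second ranked 24674 and 51457 in atRA against 11792 and 19990 in DMSO. Both regions were still found at 24 hpf, in all 4 libraries, at ranks 44082 to 113992 for the first and 43408 to 71289 for the second.

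**Figure D4:**
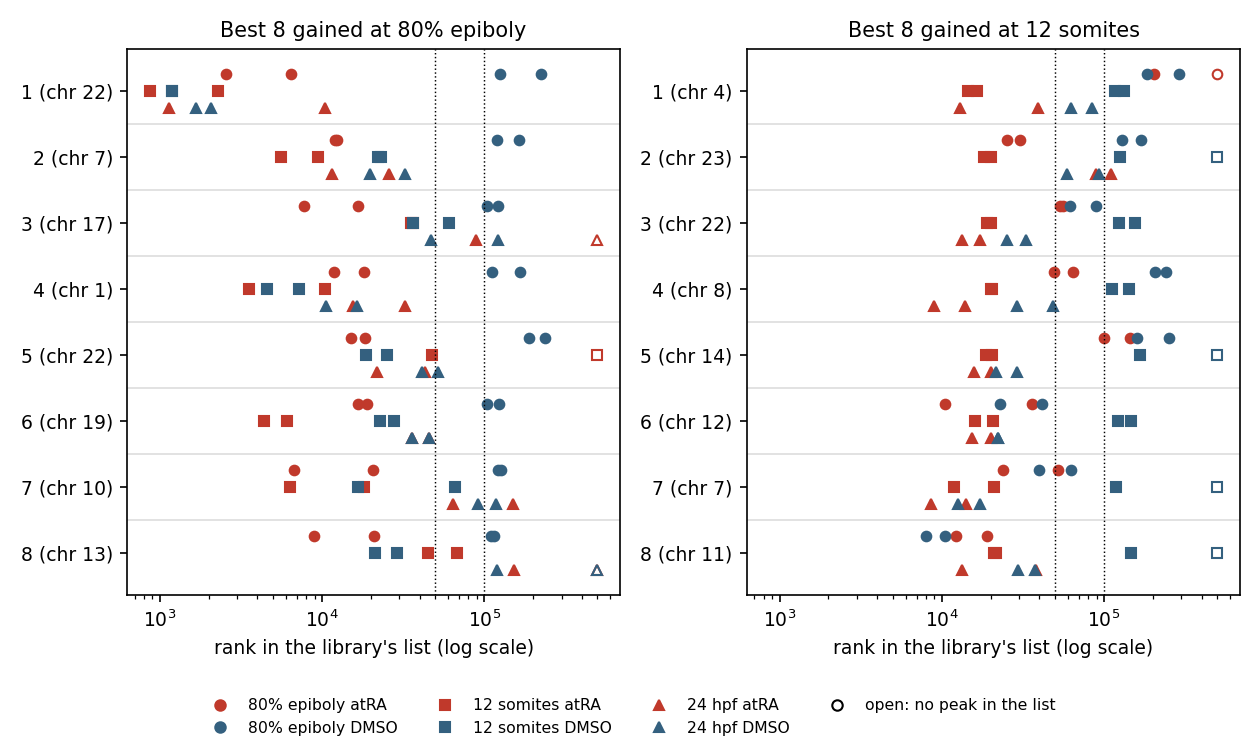
Rank in each library (log scale, strong peaks to the left) of the 8 early regions per stage with the best worse atRA rank, with the chromosome beside the number; red is atRA, blue is DMSO, shapes mark stages, open symbols mark libraries without a peak, and dotted lines mark ranks 50000 and 100000. On the left, the first region (chr22:34685739-34686457) lies at 2580 and 6486 in atRA against 124398 and 223798 in DMSO at 80% epiboly and at 869 to 2302 in all libraries of 12 somites; on the right, the eighth (chr11:41392219-41392441) lies at 7982 and 10408 in DMSO at 80% epiboly.

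Among the early regions of 12 somites, the best-ranked differed in their state at 80% epiboly. At chr4:11621529-11621925, the best-ranked, 80% epiboly gave rank 203184 in atRA replicate 1, no peak in replicate 2, and ranks 290861 and 183544 in DMSO. At 12 somites its ranks were 16369 and 14497 in atRA against 116802 and 132870 in DMSO, and at 24 hpf 13002 and 38922 in atRA against 62577 and 84064 in DMSO. Both atRA libraries thus ranked it better than both DMSO libraries at 24 hpf too. At chr14:32847211-32847587, 80% epiboly gave 100229 and 144593 in atRA against 159258 and 253283 in DMSO. At 12 somites it ranked 20493 and 18695 in atRA, against no peak in DMSO replicate 1 and 166500 in replicate 2. At 24 hpf both atRA libraries still ranked it better, at 20076 and 15735 in atRA against 21680 and 29204 in DMSO. Its heights there had the reverse order, at 17.7 and 17.7 in atRA against 25.2 and 18.7 in DMSO.

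Other regions of that set were strong in control gastrulae, lacking or weak in controls of 12 somites, and strong again at 24 hpf. At chr11:41392219-41392441 the ranks at 80% epiboly were 18936 and 12276 in atRA against 7982 and 10408 in DMSO. At 12 somites they were 21623 and 20883 in atRA, against no peak in DMSO replicate 1 and 146026 in replicate 2. At 24 hpf they were 13413 and 37900 in atRA against 37418 and 29563 in DMSO. Treated embryos therefore held this site in the top set at all 3 stages, and controls at the first and last.

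At chr13:25067555-25067775 and chr18:14892509-14892751 the controls of 12 somites had no peak in either library. The region on chromosome 13 ranked 29663 and 28459 in atRA against 15338 and 17518 in DMSO at 80% epiboly, and 35265 and 16104 in atRA at 12 somites. Its ranks at 24 hpf were 9709 and 21064 in atRA against 12057 and 19237 in DMSO. The region on chromosome 18 ranked 6933 and 12488 in atRA against 19766 and 30888 in DMSO at 80% epiboly, and 31646 and 34150 in atRA at 12 somites. By 24 hpf it ranked 21498 and 18797 in atRA against 10507 and 16186 in DMSO. The 12 somites DMSO libraries were the shallowest pair of the series, and the part of depth in these gaps was not tested.

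By contrast, chr24:41409480-41409733 had a peak in only 1 library of 80% epiboly. This was atRA replicate 1, at rank 64582 and a height of 11.7, inside its wide set. The shallow atRA replicate 2 and both DMSO libraries had none. At 12 somites it ranked 19982 and 25104 in atRA without a DMSO peak. At 24 hpf it had no peak in atRA replicate 1 and rank 155688 in replicate 2, against 30642 and 20667 in DMSO, at heights of 15.1 and 15.8. Here the treated embryos had the site at 12 somites, and in 1 library at 80% epiboly, and the controls had it at 24 hpf.

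The full rule for a gain, with both atRA top sets and neither DMSO wide set, was met at the unused stage too by 3 of the 205 regions at 24 hpf (1.46%, against 0.0673% of all regions). The reverse rule was met there by 0 of the 205, against 0.15% of all regions. At 80% epiboly, 4 of the 284 met the rule for a gain (1.41%, against 0.33% of all regions) and 3 the reverse (1.06%, against 0.199%). These 7 gained again are named because of those values. The 3 were chr6:54977247-54977888, chr13:40600592-40601143 and chr13:49920768-49921209. The last ranked 48962 and 19621 in atRA against 108868 and 112444 in DMSO at 80% epiboly, and 37406 and 38406 in atRA against 114007 and 179889 in DMSO at 24 hpf. In between, at 12 somites, it was strong in both treatments, at 11741 and 11103 in atRA against 8357 and 6592 in DMSO.

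The 4 gained at 80% epiboly and again at 12 somites were chr4:17507575-17508040, chr5:48925019-48925611, chr15:35603258-35603691 and chr23:41072005-41072317. The region on chromosome 23 ranked 30450 and 25073 in atRA against 169042 and 129047 in DMSO at 80% epiboly. At 12 somites it ranked 19975 and 18320 in atRA, against no peak in DMSO replicate 1 and 124954 in replicate 2. At 24 hpf it ranked 89704 and 111214 in atRA against 59039 and 93239 in DMSO, so at the last stage the treatments overlapped at a lower rank. The region on chromosome 5 ranked 44117 and 26118 in atRA against 108710 and 107582 in DMSO at 80% epiboly, and 27463 and 37354 in atRA against 138358 and 113986 in DMSO at 12 somites. At 24 hpf it ranked 9843 and 16557 in atRA against 27933 and 35637 in DMSO, so both atRA libraries were ahead at all 3 stages.

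Some early regions had another close by. With gaps of at most 50 kb, 44 of the 489 regions fell into 21 groups, of which 5 held regions of both sets, 5 only those of 80% epiboly and 11 only those of 12 somites. Such groups were not counted in other sets of regions, so these counts have no background and show no trait of early regions. Over all regions, a median of 6 others at 80% epiboly and 7 at 12 somites lay within 50 kb. A group of 3 lay at chr13:33836580-33907504 and another at chr15:35570883-35639620, each with both kinds. On chromosome 15, the region of 80% epiboly (chr15:35570883-35571272) ranked 35262 and 34673 in atRA against 137559 and 132662 in DMSO at its stage. Its neighbour chr15:35639348-35639620 ranked 46186 and 63189 in atRA against 284032 and 172611 in DMSO at 80% epiboly, and was gained at 12 somites at 33838 and 41181 in atRA, against no peak in DMSO replicate 1 and 138086 in replicate 2. All 3 regions of this group ranked better in both atRA libraries than in both DMSO libraries at 80% epiboly, an order that the rule fixes for the first. The region between them met the gain rule at that stage. At 24 hpf the first ranked 164596 in atRA replicate 1 without a peak in replicate 2, against 49333 and 75390 in DMSO. The middle region had 30943 and 36175 in atRA against 86935 and 81860 in DMSO. The last had 52586 in atRA replicate 1 and no peak in replicate 2, against 89005 and 78919 in DMSO.

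On chromosome 23, the recurrent chr23:41072005-41072317 lay within 30126 bp, ends included, of chr23:41101780-41102130, an early region of 80% epiboly. At 80% epiboly this neighbour ranked 40660 and 36480 in atRA against 100577 and 153301 in DMSO. Later it was strong everywhere, at 6989 and 5985 in atRA against 9229 and 20329 in DMSO at 12 somites, and at 11325 and 7762 in atRA against 7707 and 6542 in DMSO at 24 hpf. Neighbours on chromosome 8 belonged to different sets. There chr8:17412929-17413248 was gained at 80% epiboly, at 41642 and 49774 in atRA against 169654 and 115510 in DMSO. Next to it, chr8:17420606-17420994 was gained at 12 somites, at 20199 and 20302 in atRA against 141753 and 112492 in DMSO. At 80% epiboly it already ranked 48949 and 64287 in atRA against 241362 and 206306 in DMSO. It missed the rule for a gain there only by its rank in atRA replicate 2.

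The early regions were spread over all chromosomes, with unequal shares. Chromosome 9 held 20 of the 205 regions of 80% epiboly (9.76%), against 4.40% of all regions of the stage and 6.45% of the gained regions that were not early. Chromosome 13 held 27 of the 284 regions of 12 somites (9.51%), against 4.20% of all regions and 9.89% of the other gained regions. Chromosomes 15 and 12 followed with 22 (7.75%, against 3.85%) and 20 (7.04%, against 3.43%). Chromosome 9 was high in the first set alone, as it held 2.11% of the second, against 4.24% of all regions of 12 somites. Chromosome 13 also lay above its background in the first set, with 5.85% against 4.12% of all regions of 80% epiboly. These chromosomes were picked for their counts, and no test was made.

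**Figure D5:**
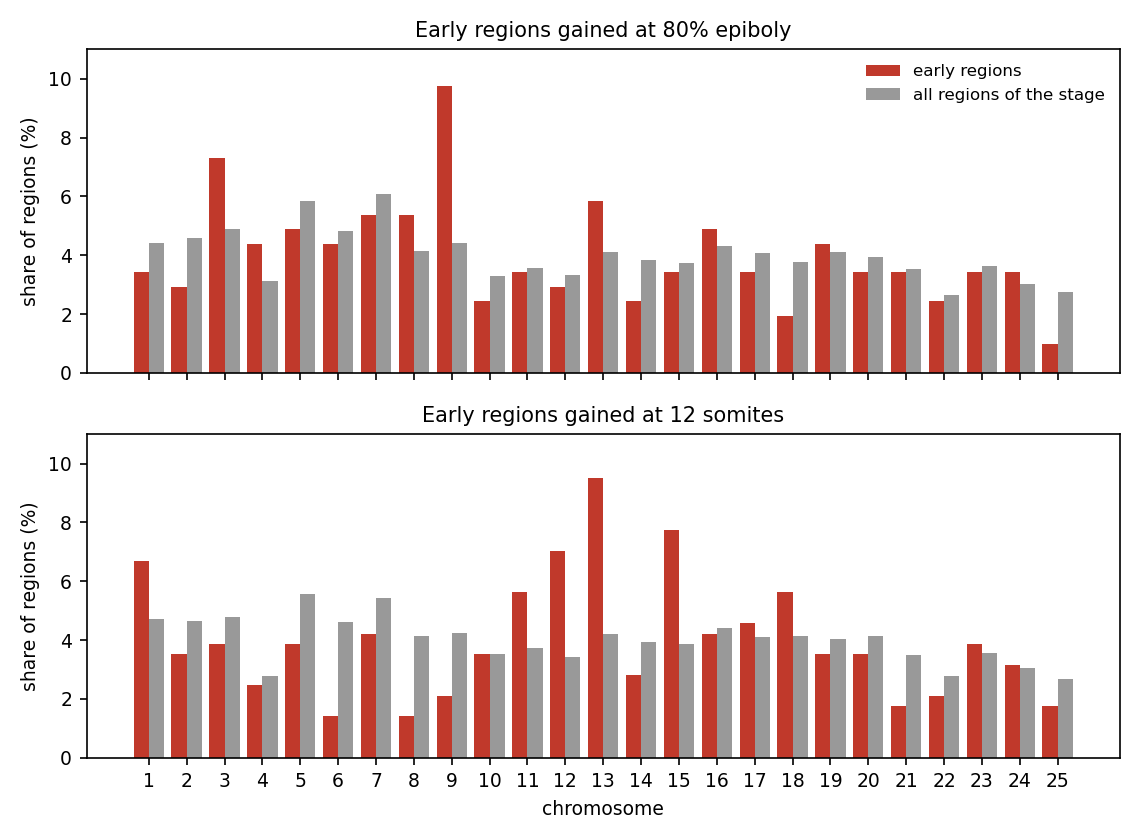
Share (%) of the early regions (red) and of all regions of the stage (grey) on each of chromosomes 1 to 25, for regions gained at 80% epiboly and at 12 somites. Chromosome 9 stands out in the upper plot (9.76% against 4.40%) and chromosome 13 in the lower (9.51% against 4.20%).

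In size and spacing the early regions were ordinary. The median width was 370 bp (range 211 to 854) in the set of 80% epiboly, against 371 bp over all its regions and 441 bp in the regions of all 4 top sets. It was 318 bp (186 to 955) in the set of 12 somites, against 309 bp and 379 bp. A median of 6 other regions lay within 50 kb of an early region of 80% epiboly and 7 of one of 12 somites, the same numbers as over all regions of those stages.

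By the rule, the later control peaks overlapped the early regions, so short distances between summits are part of the choice. Between the summit of the first atRA replicate and that of the second, the median distance was 24 bp in the set of 80% epiboly and 15 bp in that of 12 somites. From the first atRA replicate to DMSO replicates 1 and 2 of the next stage it was 30 and 21 bp for the set of 80% epiboly, and 19 and 19.5 bp for that of 12 somites. Over all regions with a peak in both lists these distances were 26 and 21 bp, and 21 and 20 bp. The summits of treated embryos and of later controls were thus about as far apart as those of regions in general, at a median of 30 bp or less. To DMSO replicates 1 and 2 of the own stage, where a peak was present, the medians were 24 and 20 bp for the set of 80% epiboly. For the set of 12 somites they were 39 and 26 bp. Over all regions the own-stage medians were 13 and 13 bp at 80% epiboly, and 24 and 19 bp at 12 somites.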

How the data were processed

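ATAC-seq was run on 12 libraries of whole zebrafish embryos, 2 for each of 3 stages and 2 treatments. The submitters' processing notes name Bowtie2, SAMtools, MACS2 and the builds GRCz10 and danRer10, without versions, roles or settings. Each deposited peak name includes an abbreviation for nucleosome-free fragments; how these were chosen, and any read shift, is not given in the sources used here, and leaving out longer fragments can hide sites. Replicates were not pooled: the authors deposited a separate peak list for each library. Each list gives a fold enrichment, a ratio of the peak to the background of the same library that the authors computed. The authors also deposited a −log10 p-value, a −log10 q-value, a summit position and a score per peak, and these values serve to rank, select and describe peaks inside their own list only.

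From the deposited fold and −log10 p-value, a whole-number summit pileup and a background pileup were solved for 100% of the peaks in each list (tolerance 0.001). The background value most common in a list (30.5% to 43.6% of the peaks) measured depth, if fragment extension and genome size were set alike. Read totals are unknown, so intervals on pileups are not given. The last-ranked peak of a top set had a summit pileup of 10 in the shallowest library and of 57 in the deepest.

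Peaks were ranked by −log10 p-value, then fold, then position, and overlapped if they shared 1 bp. Samples were grouped by the labels' stage and treatment. Differences between treatments were tested by exact permutation over libraries, in stages that the choice of regions had not used. Percentages of all regions stand beside those of early regions as background. Whether same-numbered replicates of atRA and DMSO share a clutch or batch is not given in the sources used here. Over regions, their deviations from the group means were hardly correlated (80% epiboly −0.0782, 12 somites 0.0145, 24 hpf −0.0867). Such values from 2 libraries per group cannot exclude a shared origin, so pairing by number stays unknown. The main tests did not pair libraries. Alternatives were top sets of 20000 and 80000 peaks, a wide set of 150000, ranking by fold, a −log10 q-value of at least 2, reciprocal overlap of 50%, a replicate block and the omission of each library. Differences relative to all regions, and the block for single differences, were added after seeing the data.

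The regions and lists were chosen with earlier results of these data known. Regions were named if they had the 8 best worse atRA ranks of their stage. Of the 17 with no DMSO peak at their stage and both DMSO top sets at the next, those with the best worse atRA ranks were named. The regions of 6 groups with gaps of at most 50 kb, taken by size and then by rank, were added, which gave 37 regions. Regions that met the rule for a gain at the unused stage are named too, chosen after their values were seen. Sequence, motifs and genes were not analysed here, since no genome or annotation of the files' build was used. Analyses used Python 3.11.15, numpy 2.4.6, pandas 2.3.3 and scipy 1.17.1, and the counting of regions was tested on simulated lists.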

Additional observations from a re-analysis of the deposited data

How the results depend on the processing

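The number of early regions depended on the limits, and the cause of each shift other than the changed condition was not tested. For 80% epiboly and 12 somites, early regions numbered 6 and 3 with top sets of 20000 peaks, 987 and 1496 with 80000, and 76 and 105 with wide sets of 150000. Reciprocal overlap of 50% gave 668 at 12 somites. Leaving out each library gave 235 to 774 and 318 to 2050, since a condition on a pair then rests on 1 library. The share of gained regions that were early was 37.9% and 43.7% with top sets of 80000, 57.1% and 71.9% with wide sets of 150000, and 37.4% and 52.1% with reciprocal overlap. Ranking by fold gave 53.9% at 12 somites, and leaving out libraries 30.5% to 64.5% and 41.6% to 75.3%. The −log10 q-value limit of 2 changed none of these counts and shares. It removes peaks only from the weak end of each list, so it is a weak check of stability. Of the 37 named regions, 37 stayed early with each library left out, which can only loosen the rule, 28 with ranking by fold, 34 with reciprocal overlap, 14 with wide sets of 150000 and 9 with top sets of 20000; 1 stayed early under every setting tried.

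The design cannot give a p under 0.333 for 1 stage or 0.0556 for both, so p-values say nothing about stability. The top set difference at 24 hpf, 4.15 points, was −8.33 with top sets of 20000 (6 regions) and 0.711 to 5.37 with libraries left out. The wide set difference at 80% epiboly, −3.35 points, was 33.3 with top sets of 20000 (3 regions) and −6.34 to −0.346 with libraries left out. Their mean, 0.401 points, was −2.78 with top sets of 80000, −0.955 with ranking by fold, −3.55 with reciprocal overlap and −2.81 to 1.65 with libraries left out. Permuting within replicate numbers (replicate block) gave exact permutation p = 0.5 for 4.15 points, 1.0 for −3.35 and 1.0 for 0.401. For 1 stage, 0.5 is the smallest p that this block can give. Relative to all regions the differences were 4.87, −4.34 and 0.266 points.

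Unknown read totals limit every rank: a missing peak in 80% epiboly atRA replicate 2 or 12 somites DMSO replicate 1, at background pileups of 0.87 and 0.69, means less than one in a deeper list.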
